A study of Mus musculus with 6 samples.

Results

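The E2F family and its DP partners make up the transcription factors that switch on the genes for S phase. They were taken here as the 10 genes E2f1 to E2f8, Tfdp1 and Tfdp2, matched by symbol. Each had 1 row in the count table and 1 in the FPKM table, so that all 10 members were found among 24794 genes, and all 10 passed the filter on low counts that left 13779 genes tested. The RNA came from LLC (Lewis lung carcinoma) cells, a mouse line that grew out of a lung tumour in the C57BL/6 strain. Cells of 3 libraries received miR-291-3 mimics, short duplexes that stand in for a microRNA, and those of the other 3 received a mimics control. The series' design text names the microRNA as miR-291a-3p and asks what its overexpression does in these cells. Both groups share the line and the transfection, while the mimic sequences, the dose and the time after transfection were not given in the sources used here. No label states whether replicate libraries are separate cultures. All p-values therefore set the difference between groups only against the scatter of these libraries, and that scatter may be technical.

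E2F1, E2F2 and E2F3 are called activators: free of the retinoblastoma (pocket) proteins, they drive genes for DNA replication and nucleotide synthesis. E2F4 and E2F5 work mostly as repressors together with the pocket proteins, and E2F6 represses through a polycomb complex without them. E2F7 and E2F8 are atypical: they bind DNA without a DP partner and hold down E2F targets late in S phase. DP1 and DP2, encoded by Tfdp1 and Tfdp2, pair with E2F1 to E2F6 and give them stable DNA binding. Several E2F genes are themselves E2F targets, and the microRNAs of the miR-17 family are known to act on E2F transcripts.

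Depth lay between 25376993 and 32963986 counts per library, and the members drew between 349 and 7923 counts in a library. On the first principal component (54.9% of the variance of the tested genes) the groups lay apart. Among markers of lung alveolar cells none was tested, and their summed level was at most 0.02 FPKM (a level scaled for gene length and library depth). Of the epithelial markers Krt8 was high (493 ± 7.41 and 552 ± 8.98 CPM, counts scaled to library size, in control and mimic), whereas Cdh1 and Epcam had at most 5 counts in a library. Krt18, the other tested epithelial marker, had 1.97 ± 0.365 and 3.65 ± 0.659 CPM. Leukocyte markers summed to between 0.12 and 0.35 FPKM, endothelial markers to between 0.05 and 0.11 and fibroblast markers to between 6.52 and 7.36. Of the 3 tested fibroblast markers Pdgfra fell from 29.8 ± 2.02 to 20 ± 0.8 CPM (adjusted p = 2.86e-10, edgeR), Pdgfrb rose from 25.5 ± 0.935 to 31.7 ± 1.05 (adjusted p = 1.68e-06) and Col1a2 was not called. The part of these markers in the results below was not tested.

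The mature microRNA is shown with its seed (bases 2 to 8) in capitals, beside a microRNA of the miR-17 family, because the seeds overlap by 6 bases. Both sequences are from RefSeq (GRCm38.p6), and mature miR-291a-3p lies at chr7:3218968-3218989, plus strand.
miR-291a-3p: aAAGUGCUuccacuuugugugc
miR-17-5p: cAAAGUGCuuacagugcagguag

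A transcript that matches the seed holds AGCACTTA (8mer), AGCACTT (7mer-m8), GCACTTA (7mer-A1) or GCACTT (6mer). A 6mer followed by T, GCACTTT, also matches the seed of miR-17-5p. The sites of the members were sought in the longest annotated 3' UTR of each gene in GENCODE M21 on GRCm38, which is not the build the authors used, GRCm39. E2f2, E2f7, E2f5 and E2f1 are shown because they span the range from the longest match to the shortest. Each line is 30 bases of the 3' UTR, in the sense of the transcript, with the match in capitals.
E2f2 site A: cctgactttttcaagaAGCACTTAacgcct
E2f2 site B: tttgcttgaattaattGCACTTAggctttg
E2f2 site C: aggggctcagtggggcAGCACTTtttgctt
E2f7 site A: tgaagcggggttgcctAGCACTTAaccagg
E2f7 site B: tattatgacttgccctGCACTTAttctaca
E2f5 site: aagtgccttctgttttAGCACTTtaagcct
E2f1 site A: ggggtgggctctaactGCACTTttggtgtc
E2f1 site B: ccccaccctccagtctGCACTTtgatttgt

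E2f2 held 3 sites, all in exon 7 of 7 on the plus strand: the 8mer at chr4:136193339-136193346, the 7mer-A1 at chr4:136193570-136193576 and the 7mer-m8 at chr4:136194378-136194384. In E2f7 the 8mer lay at chr10:110785126-110785133 and the 7mer-A1 at chr10:110785396-110785402, both in exon 13 of 13. The E2f5 site, a 7mer-m8, lay at chr3:14606158-14606164 in exon 8 of 8. E2f1 had 2 sites of 6 bases, at chr2:154560213-154560218 and chr2:154559698-154559703 on the minus strand, and both are part of the word GCACTTT. E2f3 and E2f4 had 1 6mer each, Tfdp2 had a 7mer-A1, and no match was found in E2f6, E2f8 and Tfdp1. The 7mer-m8 of E2f2, the E2f5 site and the E2f3 6mer also run into the word GCACTTT. Altogether 4 of the 10 members (E2f2, E2f5, E2f7 and Tfdp2) had a match of 7 or 8 bases, against 20.9% of 11585 tested genes with an annotated 3' UTR, and 2 members had an 8mer, against 3.59%. Their 3' UTRs measured 3020 (E2f2), 592 (E2f5), 2546 (E2f7) and 5675 bases (Tfdp2), and those of the other members between 618 and 3328. A longer 3' UTR has more places for a match, the shares were not matched for length, and an excess of matches in the family was not tested. The E2f7 match was absent from at least 1 of its 4 annotated transcripts, and the Tfdp2 match from the transcript with the longest coding sequence, so that 3 members had one there.

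Levels between genes were compared in FPKM, which takes gene length into account. In the control libraries Tfdp1 (57.1 ± 0.276 FPKM, SD, n = 3) and E2f4 (48.4 ± 1.19) stood above the rest. They were followed by E2f1 (21.9 ± 0.673), E2f5 (16.6 ± 0.271), E2f8 (13.0 ± 0.284), E2f3 (10.7 ± 0.525) and E2f6 (7.43 ± 0.282). The lowest were E2f2 (5.18 ± 0.25), E2f7 (3.50 ± 0.0954) and Tfdp2 (2.23 ± 0.0346). No neighbours in that order overlapped in the control group. In the mimic libraries E2f4 was above Tfdp1, and the library values of E2f3 and E2f8 overlapped, as did those of E2f7 and E2f2.

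**Figure D1:**
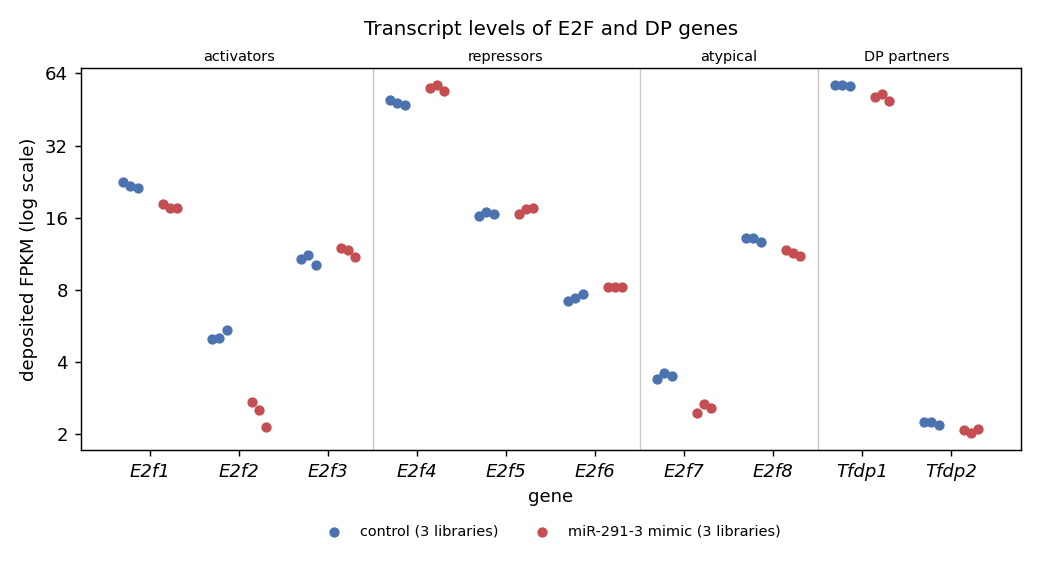
Deposited FPKM of the 10 genes on a log scale, 1 point per library, blue for control and red for mimic. E2f2 lay between 5.01 and 5.47 FPKM in control and between 2.15 and 2.73 in mimic libraries, whereas for E2f3 and E2f5 the groups overlapped on this scale.

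Of the 10 members 5 fell and 3 rose in the mimic libraries (edgeR's quasi-likelihood test, with Benjamini-Hochberg adjustment over all tested genes and a threshold of 0.05). Of all tested genes 49.1% were called, 24.8% as lower and 24.3% as higher. With total counts only, without TMM (edgeR's correction for library make-up), 6 members fell and 3 rose, and 49.2% of all tested genes were called. In these bulk libraries fewer cells that express a gene and less of its RNA per cell cannot be told apart. The members' median log2 change was -0.10, against -0.01 over all tested genes. In TMM-scaled CPM the groups did not overlap for any member, with 6 lower and 4 higher in mimic. Over all tested genes 27.9% were lower and 27.0% higher without overlap. By role, 2 of 3 activators fell and 1 rose, 2 of 3 repressors rose and 1 was not called, both atypical members fell, and of the DP genes 1 fell and 1 was not called.

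**Figure D2:**
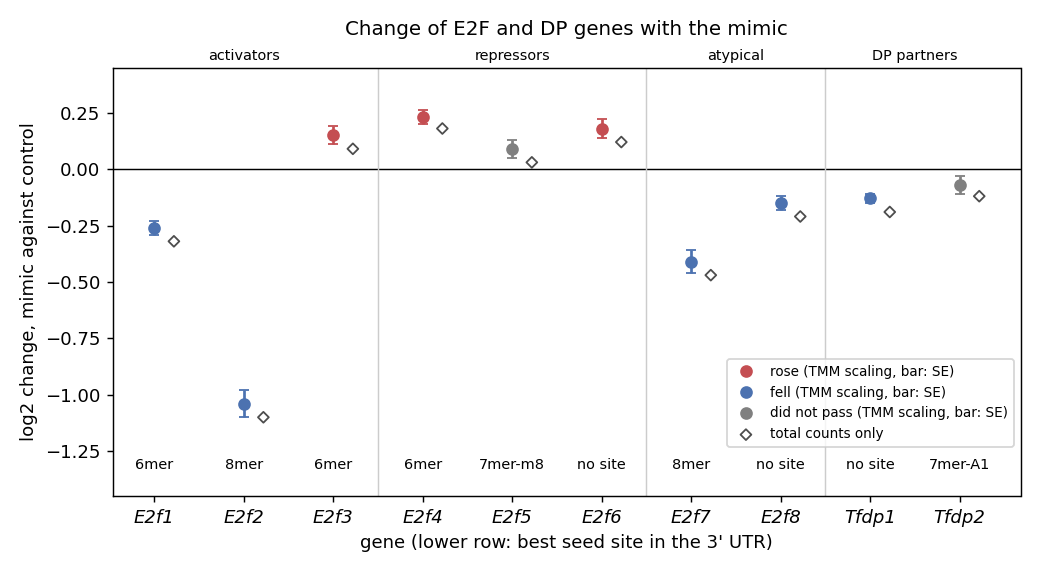
Log2 change of each gene, mimic against control, with its SE (circles, TMM scaling) and with total counts only (diamonds); the lower row names the best seed match in the 3' UTR. E2f2 lies lowest at -1.04, followed by E2f7 at -0.41, and these are the 2 members with an 8mer.

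E2f2 (ENSMUSG00000018983.10), an activator of S-phase genes, had 27.6, 27.7 and 30.2 CPM in the control libraries and 15.4, 14.1 and 12.3 in the mimic libraries. The lowest control library was well above the highest mimic library. Its log2 change was -1.04 ± 0.06 (SE), a change of -51.4% (adjusted p = 2.04e-14, edgeR). Of the 13779 tested genes 1.16% had a change at or below it. The deposited counts behind these values were 831, 800 and 1016 against 384, 390 and 349.

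E2f1 (ENSMUSG00000027490.18), the activator best known for inducing both S phase and apoptosis, had 80.7, 76.7 and 76.2 CPM in control and 66.4, 63.6 and 64.9 in mimic libraries. Every mimic library was below every control library, by a modest margin. The log2 change was -0.26 ± 0.03 (adjusted p = 6.87e-08, edgeR). E2f3 (ENSMUSG00000016477.19), the activator that encodes a long and a short protein from separate promoters, went the other way. It had 66.0, 68.0 and 62.2 CPM in control and 75.2, 73.0 and 69.5 in mimic, a log2 change of 0.15 ± 0.04 (adjusted p = 0.000834, edgeR). This call was lost with limma on log2(FPKM + 1) (adjusted p = 0.0891) and on log2(FPKM + 0.1) (adjusted p = 0.0857). Counts per gene do not separate the 2 E2f3 proteins.

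Within each library the ratio of 2 members does not depend on the scaling of that library. The log2 ratio of E2f2 to E2f1, from FPKM, was -2.08 ± 0.11 (SD) in control and -2.86 ± 0.16 in mimic libraries, a difference of -0.78 ± 0.11 (SE). The ratio of E2f3 to E2f1 moved by 0.41 ± 0.05 and that of E2f2 to E2f3 by -1.19 ± 0.10. The groups did not overlap for any of these ratios. With 3 libraries against 3 the exact permutation test (two-sided) cannot go below 0.10, the p that each of the 3 had (adjusted p = 0.12 over 5 ratios, exact permutation test).

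Among the repressors E2f4 (ENSMUSG00000014859.10), the main E2F bound to p130 and p107 in resting cells, had 138, 132 and 131 CPM in control and 158, 160 and 155 in mimic libraries. All mimic libraries were higher, and the log2 change was 0.23 ± 0.03 (adjusted p = 3.29e-09, edgeR). E2f6 (ENSMUSG00000057469.9), the subunit that brings the polycomb complex PRC1.6 to DNA, had 45.8, 46.9 and 49.5 CPM in control and 54.0, 53.2 and 54.2 in mimic. Its log2 change was 0.18 ± 0.04 (adjusted p = 0.000135, edgeR). E2f5 (ENSMUSG00000027552.16), which also pairs with p130, had 32.8, 33.7 and 33.5 against 34.2, 35.4 and 36.6 CPM. Its groups did not overlap in CPM, though they did in FPKM. The log2 change of 0.09 ± 0.04 did not pass (adjusted p = 0.0925, edgeR), except without mimic replicate 1 (adjusted p = 0.0421). The 7mer-m8 site of E2f5 thus stood beside a value above 0.

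Both atypical members fell. E2f7 (ENSMUSG00000020185.17) had 34.5, 36.2 and 35.8 CPM in control and 25.5, 27.5 and 27.0 in mimic libraries, a log2 change of -0.41 ± 0.05 (adjusted p = 7.57e-09, edgeR). E2f8 (ENSMUSG00000046179.18), which is more abundant and has no seed match, had 81.3, 80.2 and 78.2 against 73.9, 71.0 and 70.7 CPM, a log2 change of -0.15 ± 0.03 (adjusted p = 0.000134, edgeR). The log2 ratio of E2f7 to E2f8 was lower in mimic by 0.26, from -1.90 ± 0.056 to -2.16 ± 0.09 (SD), with no overlap (exact permutation p = 0.10, adjusted p = 0.12).

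Of the DP genes Tfdp1 (ENSMUSG00000038482.12), the more abundant partner, had 237, 236 and 236 CPM in control and 217, 220 and 211 in mimic libraries. All mimic libraries were below the controls, whose values nearly coincided, with a log2 change of -0.13 ± 0.02 (adjusted p = 1e-05, edgeR). Tfdp2 (ENSMUSG00000032411.16) had 35.7, 35.3 and 34.7 against 33.8, 32.6 and 34.5 CPM. Its log2 change of -0.07 ± 0.04 did not pass (adjusted p = 0.208, edgeR), but with total counts only it was -0.12 and passed (adjusted p = 0.0177). The log2 ratio of Tfdp1 to Tfdp2 differed by -0.06 ± 0.044 (SE) and its groups overlapped (exact permutation p = 0.30).

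The summed FPKM of E2f1 to E2f8 was 127 ± 1.7 in control and 127 ± 2.2 in mimic libraries (SD, n = 3), with overlapping groups, while its make-up differed. The activators' share was 30%, 29.8% and 29.6% in control and 25.8%, 24.8% and 24.7% in mimic libraries. The share of E2f4, E2f5 and E2f6 went from 57.2% ± 0.23 to 63.9% ± 0.68, and that of E2f7 and E2f8 from 13% ± 0.11 to 11% ± 0.09. By gene, E2f4 went from 38.2% ± 0.48 to 43.8% ± 0.42, E2f1 from 17.3% ± 0.34 to 14.1% ± 0.3, and E2f2 from 4.09% ± 0.25 to 1.94% ± 0.21. The E2F sum includes E2f7 and E2f8, whose proteins bind DNA without a DP partner, so that a ratio to it does not compare DP genes with their partners alone. The log2 ratio of summed Tfdp1 and Tfdp2 to summed E2F FPKM was -1.10 ± 0.013 in control and -1.26 ± 0.02 in mimic. The groups did not overlap for the 3 subclass shares and for this ratio (exact permutation p = 0.10 for each of these 4, the smallest possible), and the shares by gene are given with no test. They are shares of RNA, and protein was not measured.

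**Figure D3:**
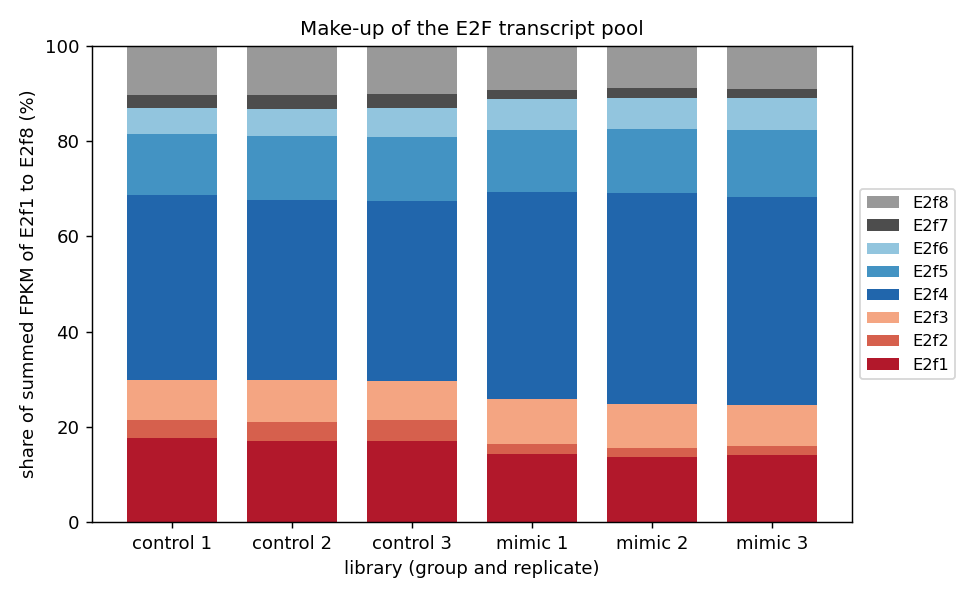
Share of each E2F gene in the summed FPKM of E2f1 to E2f8, in percent, 1 bar per library; red shades are activators, blue shades repressors and grey shades atypical members. The red part takes 29.6% to 30% in control and 24.7% to 25.8% in mimic libraries.

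Pocket proteins, which bind E2Fs and silence their targets, fell in all 3 cases. Rbl2 (p130), with an 8mer in its 3' UTR, fell from 31.5 ± 1.46 to 14.9 ± 1.07 CPM. Rbl1 (p107), with a 7mer-m8, fell from 45.9 ± 1.22 to 30.6 ± 1.32 CPM, and Rb1, with a 6mer, from 8.32 ± 0.526 to 5.66 ± 0.554 CPM. Their median log2 change was -0.59. CDK inhibitors, which keep pocket proteins in their E2F-binding form, fell in all 4 tested cases: Cdkn2c (56.7 ± 1.13 to 28.5 ± 1.45 CPM), Cdkn1a (21.7 ± 1.4 to 9.98 ± 0.566), Cdkn1b (51.8 ± 1.2 to 39 ± 1.42) and Cdkn2d (36.5 ± 0.511 to 28.1 ± 0.407). Of these 4 only Cdkn1a held a seed match, an 8mer. Cdkn1c had at most 1 count in a library and was not tested. Cdkn2a and Cdkn2b had no entry under these symbols among the deposited genes, so that neither could be tested. The lists of regulators and targets in this and the following paragraphs were chosen with earlier results of these data known, and are described by counts beside the 24.8% of tested genes that fell and the 24.3% that rose.

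Of the 8 tested cyclins and kinases that phosphorylate pocket proteins 3 fell and 1 rose, with a median log2 change of -0.05: Ccnd1 fell from 330 ± 3.83 to 265 ± 3.83 CPM, Cdk6 and Ccne2 had log2 changes of -0.10 and -0.13, and Cdk4 had 0.08. With total counts only 6 of the 8 fell and none rose (32.3% of all tested genes fell and 17.0% rose in that fit), and Cdk4 did not pass (adjusted p = 0.376, edgeR), nor did it with limma on log2(FPKM + 1) (adjusted p = 0.095) or log2(FPKM + 0.1) (adjusted p = 0.0997). The call for Ccne2 was also lost without control replicate 3 (adjusted p = 0.082, edgeR). In the list of the MuvB core with Mybl2 and Foxm1 3 of 7 tested genes fell and 2 rose, with a median log2 change of 0. Of the core, which joins E2F4 and p130 in the repressive DREAM complex, Lin52, with an 8mer, fell from 15.9 ± 0.67 to 10 ± 1.03 CPM and Lin37 had a log2 change of -0.25. Rbbp4 rose by 0.14, and Lin9 (0.00, adjusted p = 0.973, edgeR) and Lin54 (0.05, adjusted p = 0.469) were not called. Mybl2 (B-MYB), an E2F target that joins MuvB after DREAM is taken apart, rose by 0.23 and the mitotic factor Foxm1 fell by 0.16 on the log2 scale. The call for Lin37 was lost when control replicate 1 (adjusted p = 0.0989, edgeR) or mimic replicate 3 (adjusted p = 0.0756) was left out, and with DESeq2 (adjusted p = 0.077).

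All 4 ubiquitin ligase subunits known to act on E2F proteins fell by small amounts: Skp2 (-0.19), Ccnf (-0.14), Fzr1 (-0.09) and Cdc20 (-0.09). Fzr1 did not pass without mimic replicate 2 (adjusted p = 0.0726, edgeR). The subunits of PRC1.6, the complex of E2F6, went with E2f6: 8 of 11 rose and 1 fell, with a median log2 change of 0.18. Wdr5 rose from 116 ± 1.16 to 139 ± 2.92 CPM and L3mbtl2 from 65.3 ± 1.8 to 76.3 ± 2.21. Max, Pcgf6, Cbx3 and Rnf2 rose by 0.19, 0.21, 0.18 and 0.17 on the log2 scale. Ring1, a catalytic subunit, went against them and fell from 28.8 ± 0.276 to 21.7 ± 0.531 CPM. With total counts only 6 of 11 rose, where 17.0% of all tested genes rose. Cbx1 (0.11, then 0.05) and Yaf2 (0.12, then 0.06) no longer passed in that fit. Yaf2 also missed the threshold when control replicate 1 (adjusted p = 0.115, edgeR), control replicate 2 (0.05) or mimic replicate 2 (0.0953) was left out, with DESeq2 (0.0567) and with limma (0.126 and 0.123). Mga, the scaffold of the complex, was not called (-0.02) although it held an 8mer. Of the germline genes that E2F6 is known to silence, Smc1b, Stag3, Tuba3a, Tuba3b and Slc25a31 had at most 2 counts in any library of either group. No change was detectable in them at this depth, and Mael had no entry under this symbol among the deposited genes. Over all regulators 18 of 37 tested fell and 11 rose. With total counts only 21 fell and 8 rose, where 32.3% of all tested genes fell and 17.0% rose.

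**Figure D4:**
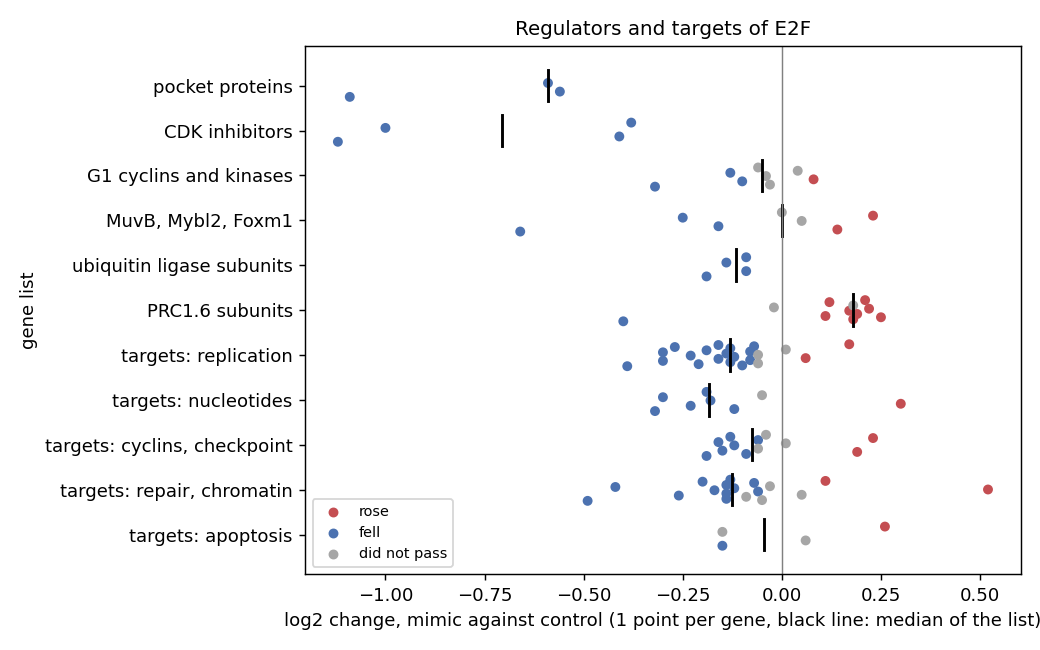
Log2 change of each tested regulator and target, 1 point per gene by list, with the list's median as a black line. All 7 tested pocket proteins and CDK inhibitors lie at -0.38 or below, most PRC1.6 subunits lie above 0, and most targets of the replication list lie between -0.39 and 0.

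Of 64 tested E2F target genes 43 fell (67.2%) and 8 rose (12.5%), with a median log2 change of -0.12. With total counts only 51 fell and 5 rose, with a median of -0.18, where 32.3% of all tested genes fell and 17.0% rose. In the origin licensing and replication fork list 17 of 22 fell and 2 rose. Rfc3, a clamp loader subunit, fell from 62.9 ± 1.37 to 47.9 ± 0.208 CPM, Lig1, which joins Okazaki fragments, from 130 ± 1.59 to 106 ± 4.35, Cdt1, which licenses origins, from 130 ± 1.38 to 108 ± 3.4, and Pola1, of the primase complex, from 97.7 ± 2.01 to 79.5 ± 2.78. The 2 risen genes were Orc1 (log2 change 0.17) and Mcm2 (0.06). With total counts only both missed the threshold (adjusted p = 0.092 and 0.959, edgeR). So did Orc1 without control replicate 1 (adjusted p = 0.0897) and with limma (0.0814 and 0.0778). Mcm2 missed it under most alternatives, among them leaving out control replicate 2 (0.175), control replicate 3 (0.054), mimic replicate 2 (0.136) or mimic replicate 3 (0.0939).

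In the nucleotide synthesis list 6 of 8 fell and 1 rose. Rrm2, the S-phase subunit of ribonucleotide reductase, fell from 440 ± 1.99 to 357 ± 4.28 CPM, Tk1 from 227 ± 1.78 to 194 ± 3, and Rrm1, the large subunit of the reductase, from 251 ± 4.12 to 221 ± 2.39. Ctps, the CTP synthase, went against them and rose from 174 ± 2.44 to 214 ± 1.67 CPM. In the list of cyclins, kinases and checkpoint genes 7 of 12 fell and 2 rose. The fallen genes included Skp2, Melk (-0.15), the S-phase cyclin gene Ccna2 (-0.09) and the checkpoint kinase gene Chek1 (-0.16), and the risen genes were Mybl2 and the phosphatase gene Cdc25a (0.19).

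In the repair and chromatin list 12 of 18 fell and 2 rose. The histone chaperone gene Asf1b fell from 107 ± 0.369 to 75.9 ± 2.33 CPM, Brca1 from 40.4 ± 1.36 to 30.1 ± 1.44, Atad2 from 155 ± 0.55 to 129 ± 1.27, and Dnmt1, the maintenance DNA methyltransferase, from 264 ± 4.93 to 230 ± 7.9. Ung, the uracil DNA glycosylase, rose from 32.9 ± 1.18 to 47.3 ± 0.71 CPM, a log2 change of 0.52 that was the highest of all targets. Suz12, of the polycomb complex PRC2, rose by 0.11 on the log2 scale, but missed the threshold with total counts only (adjusted p = 0.0725, edgeR). Of the apoptosis targets Apaf1, which forms the apoptosome, had a log2 change of -0.15 that did not pass without mimic replicate 3 (adjusted p = 0.0628, edgeR), and Bbc3 (-0.15) and Bcl2l11 (0.06) did not pass.

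Targets fell with and without a seed match. Of 41 targets with no match in the 3' UTR 27 fell (65.9%) and 6 rose, with a median log2 change of -0.12. Of 17 targets with a match of 7 or 8 bases 12 fell (70.6%) and none rose, with a median of -0.14. Of 6 targets with only a 6mer 4 fell and 2 rose. Among all tested genes with a 3' UTR 23.6% of those with no match fell and 30.7% rose. Of those with a match of 7 or 8 bases 38.6% fell and 18.1% rose, and with only a 6mer 30.1% fell and 25.1% rose. These genes are not independent replicates, and whether the targets changed through the E2F genes was not tested.

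Because some E2F genes are E2F targets themselves, the windows from 250 bases before to 50 bases after the RefSeq start sites (GRCm38.p6) were searched on both strands for TTTCCCGC, TTTCCCGG, TTTCGCGC, TTTCGCGG, TTTGCCGC, TTTGCCGG, TTTGGCGC and TTTGGCGG, where words may overlap. At least 1 word was found in 4.51% of 32851 windows and in 5 of the 12 windows of 8 members. The lines give 30 bases around the words of each member that had any, with the words in capitals and each read in the direction of the gene.
E2f2 window: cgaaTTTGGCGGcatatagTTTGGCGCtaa
E2f3 window: gccgGCGGGAAAtctgagTTTCGCGGgagg
E2f7 window: cccgcgtccccGCGGGAAAcgctcccgcgt
Tfdp1 window: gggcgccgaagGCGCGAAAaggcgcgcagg

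The stretch of E2f2 lies at chr4:136172294-136172323 (plus strand), that of E2f3 at chr13:29986049-29986078 (minus strand), that of E2f7 at chr10:110745230-110745259 (plus strand) and that of Tfdp1 at chr8:13338697-13338726 (plus strand), where it falls into both of the gene's windows. E2f2, E2f7 and Tfdp1 fell and E2f3 rose, so that members with these words moved in both directions. The windows of E2f1, E2f6, E2f8 and Tfdp2 held none of the words, which says only that these letters are not there. A match is a description of the sequence and not a measured binding site.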

How the data were processed

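The authors deposited whole-number read counts for 24794 genes and FPKM values for 24494. Named in the submitters' processing notes are GRCm39, HISAT2 and DESeq2; versions, the counting tool and its strand setting were not given in the sources used here. Strand is kept by the library kit, per the labels' protocols. In GENCODE M21, E2f3, E2f5, E2f7, E2f8 and Tfdp2 overlap a gene on the opposite strand, whose reads could enter their counts if counting ignored strand. Groups were taken from the sample titles. For the main test the deposited counts of all 6 libraries were analysed in R 4.3.3 with edgeR 4.0.16 (filterByExpr, TMM, glmQLFit, glmQLFTest; Benjamini-Hochberg over 13779 genes, threshold 0.05). The SE of a log2 change is its size over the square root of F. Shares and ratios were computed from the authors' FPKM values in Python 3.11.15. Only the edgeR fit was checked on simulated counts, in which far fewer genes were changed than were called here. It recovered 55.2% of genes changed 1.2-fold and 84.8% of those changed 2-fold, and called 13 of 13457 unchanged genes. The members and gene lists were chosen with earlier results of these data known. Named genes are the members, of each list up to 4 risen and 4 fallen by adjusted p (lists of 11 or fewer in full), and the 5 nearest to E2f2; germline genes and markers are named as fixed lists. Values of some list genes are not reported here. The alternatives were scaling by DESeq2 size factors or by total counts, a Wald test in DESeq2 1.42.0, no filter or 2 CPM in 3 libraries, limma 3.58.1 on log2 FPKM with a pseudocount of 1 or 0.1, a replicate block, leaving out each library, and a threshold of 0.01.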

Additional observations from a re-analysis of the deposited data

How the results depend on the processing

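The direction of every member was the same under all 15 alternatives run for it. Over the 10 members 146 of 150 alternative values also stayed on the same side of the threshold. The 4 others are the calls of E2f3 with limma, of E2f5 without mimic replicate 1 and of Tfdp2 with total counts only given above. For E2f2 the log2 change ranged from -1.11 to -0.84, the latter with limma on log2(FPKM + 1), where the pseudocount draws low genes towards 0. Without each library in turn 5 members fell and between 3 and 4 rose, between 37 and 44 targets fell and between 7 and 8 rose, and between 17 and 18 regulators fell and between 10 and 12 rose. The activators' share then differed by -5.03 to -4.48 percentage points (-4.68 with all 6 libraries) and the log2 DP to E2F ratio by -0.17 to -0.16. With total counts only 5 targets rose in place of 8. A match of 7 or 8 bases in every annotated transcript, an alternative chosen after seeing the data, was found in 2 members in place of 4. The replicate number as a block gave the same counts, 5 members fallen and 3 risen, 43 targets fallen and 8 risen, and 18 regulators fallen and 11 risen. Same-numbered libraries correlated by 0.02, 0.07 and 0.05 in their deviations from the group means, each more than with other numbers, which is a hint from the data and does not show pairing. Of 780 alternative values for 52 other named genes 744 kept their call and direction, and 36 missed the threshold. None of these 36 had the opposite sign after rounding, but Mcm2 with total counts only had a log2 change of 0.00, which shows no direction.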

Other observations

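By the Euclidean distance of mean-centred log2 CPM over the 6 libraries, the tested genes nearest to E2f2 were Cxcl10 (distance 0.15), Samd9l (0.16), Casp12 (0.16), AI593442 (0.21) and Spef1 (0.21). Cxcl10 encodes an interferon-induced chemokine and Casp12 an inflammatory caspase. Cxcl10 drew only 18 to 49 counts in a library, AI593442 46 to 117 and Casp12 69 to 194, so that their distances rest on few counts. Samd9l went from 10.5 ± 0.355 to 5.23 ± 0.217 CPM and Spef1 from 10.6 ± 0.385 to 5.02 ± 0.762 (SD, n = 3 each). With 2 groups of 3 libraries the distance mostly reads the size of the fall, and it is a description with no test.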
